A study of Mus musculus with 7 samples.

Results

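Gatm and the other genes of creatine metabolism were examined in microglia, the resident macrophages of the brain, of mice with and without B2m. The group holds 7 genes, chosen by symbol: Gatm and Gamt for synthesis, Slc6a8 for uptake, and the creatine kinases Ckb, Ckm, Ckmt1 and Ckmt2. Each was read by 1 probe set, and they are 7 of 19505 genes with a named probe set on the array. Gatm led to the choice of this pathway because its level differed between these same groups, so its difference is given as a description with no test. The other 6 genes were added for their place in the pathway. Transcripts were measured with 1 array per sample in 4 B2m knockout samples (5xFAD;B2m-/-) and 3 B2m wildtype samples (5xFAD;B2m+/+). All mice carried 5xFAD, transgenes that drive mutant human amyloid precursor protein and presenilin 1 from a neuronal promoter and lead to amyloid plaques, on the C57BL/6 strain. The labels gave no age, sex or batch, and they do not say whether each sample was a different animal, so the spread behind the p-values may be partly technical. The cells were sorted as viable, CD45-positive and CD11b-positive, a gate that other myeloid cells also pass.

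Creatine buffers cellular energy. Gatm moves the amidino group of arginine to glycine, which yields ornithine and guanidinoacetate, and Gamt methylates guanidinoacetate to creatine. Slc6a8 carries creatine into cells, and creatine kinases move phosphate between ATP and creatine, in the cytosol (Ckb, Ckm) or in mitochondria (Ckmt1, Ckmt2). In the brain, synthesis and use of creatine are divided between cell types, and Ckb is the cytosolic kinase of brain.

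The promoters of the 2 synthesis enzymes are shown because Gatm was the member whose groups lay far apart and Gamt acts on its product. Both are RefSeq windows of 300 bases, from 250 before to 50 after the transcript start, on the minus strand of build GRCm38.p6. The Gatm window lies at chr2:122611228-122611527 and the Gamt window at chr10:80260963-80261262. Capitals mark matches, on either strand, to the CCAAT motif, to the TATAAA motif or to the GGGCGG motif.
Gatm: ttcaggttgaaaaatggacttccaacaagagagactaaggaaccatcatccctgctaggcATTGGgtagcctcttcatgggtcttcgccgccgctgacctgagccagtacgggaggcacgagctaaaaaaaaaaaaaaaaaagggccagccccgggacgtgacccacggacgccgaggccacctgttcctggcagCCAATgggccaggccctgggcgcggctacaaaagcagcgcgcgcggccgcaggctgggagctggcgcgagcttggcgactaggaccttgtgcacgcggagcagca
Gamt: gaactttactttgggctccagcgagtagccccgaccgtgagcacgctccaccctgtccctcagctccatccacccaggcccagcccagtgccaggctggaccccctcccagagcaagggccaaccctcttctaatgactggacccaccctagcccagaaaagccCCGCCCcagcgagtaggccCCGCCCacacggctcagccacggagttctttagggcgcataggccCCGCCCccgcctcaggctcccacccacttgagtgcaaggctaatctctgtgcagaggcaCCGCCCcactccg
The Gatm window held 2 CCAAT matches, which begin 190 and 55 bases before the start, and 0 of the other motifs. The Gamt window held 4 GGGCGG matches and 0 of the other motifs. None of these matches overlapped. Among 32851 promoter windows of this length, 37.4% held CCAAT, 13.6% held TATAAA and 35.7% held GGGCGG. Windows were at hand for 6 of the 7 genes, and CCAAT was found in those of Gatm, Ckb, Ckmt2 and 1 of 2 of Ckmt1. Base composition was GC-rich in both printed windows, at 60.7% for Gatm and 66.0% for Gamt, against a median of 52.7% over all windows. A match is only a run of letters, and binding of any factor was not measured.

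The labels were checked first on B2m, the light chain of MHC class I. Its log2 level averaged 10.41 ± 0.135 in knockout and 13.41 ± 0.0174 in wildtype arrays (SD, n = 4 and 3), with no overlap. It fell by 2.99 (SE 0.10, limma adjusted p = 1.54e-07). All values here are log2 expression per probe set after RMA, differences are knockout minus wildtype. Probe sets differ in brightness for reasons of their own, so an order of brightness between genes is a guide to signal over background and not a comparison of transcript amounts. The 11 measured of 12 microglial markers averaged 12.29 to 12.40 in knockout and 12.30 to 12.34 in wildtype arrays, and all 11 were brighter in every array than 95% of its negative control rows. That control level, 9.35 to 9.55 across arrays, serves as a rough guide to background. B2m lay above it in the knockout arrays too, at 10.24 to 10.56, and what this remaining signal stands for was not tested. In such sorted bulk samples, more cells of a type and more RNA per cell cannot be told apart.

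Gatm (Entrez Gene 67092), which opens creatine synthesis, had values of 11.93, 11.83, 11.81 and 11.99 in knockout arrays, against 10.06, 9.89 and 9.86 in wildtype arrays. All 4 knockout values lay above all 3 wildtype values, and a gap of 1.75 separated the nearest arrays. The gap was wider than the span of 0.171 within the knockout arrays or of 0.208 within the wildtype arrays. Means were 11.89 ± 0.082 in knockout and 9.94 ± 0.111 in wildtype arrays (SD, n = 4 and 3). The difference was 1.95 (SE 0.10, 95% interval 1.73 to 2.17), or 3.86-fold (3.31 to 4.51). It was the largest of the higher differences and the 4th largest in either direction among 10004 tested genes, by the contrast that chose the gene. Gatm lay above the control level in all 7 arrays, so in both genotypes. Leaving out any 1 array kept the difference between 1.91 and 2.01, and could not turn its sign because the groups did not overlap.

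**Figure D1:**
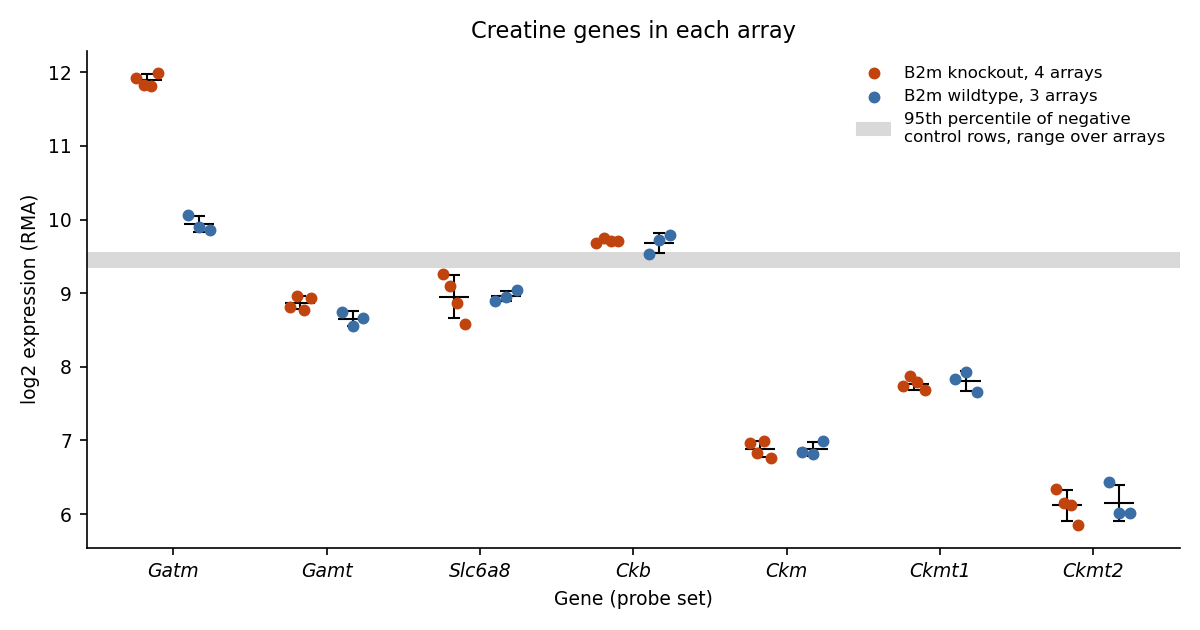
Log2 expression of the 7 creatine genes in each array, with B2m knockout arrays (4, orange) left of B2m wildtype arrays (3, blue). Horizontal marks are means and whiskers are SD, and the grey band is the control level, the range over arrays of the value that 95% of negative control rows lie below (9.35 to 9.55). Gatm values lie at 11.81 to 11.99 in knockout and 9.86 to 10.06 in wildtype arrays, and 5 of the other 6 genes overlap between genotypes.

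Gamt (Entrez Gene 14431), the methyltransferase that completes creatine synthesis, had values of 8.82, 8.96, 8.77 and 8.93 in knockout arrays, against 8.74, 8.55 and 8.67 in wildtype arrays. The groups did not overlap, but the nearest arrays were only 0.028 apart. Groups failed to overlap in 10.9% of all tested genes, and in 7.1% with all knockout arrays above. Means were 8.87 ± 0.0897 in knockout and 8.65 ± 0.0991 in wildtype arrays (SD, n = 4 and 3). The difference of 0.22 (SE 0.10, 95% interval -0.0058 to 0.44) did not pass (limma adjusted p = 0.432). All 7 Gamt values lay below the control level.

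Slc6a8 (Entrez Gene 102857), the plasma membrane creatine transporter, had values of 9.26, 9.10, 8.87 and 8.58 in knockout arrays, against 8.90, 8.95 and 9.04 in wildtype arrays. The wildtype values sat inside the knockout range, and knockout replicate 4 was the lowest array. All 7 Slc6a8 values lay below the control level. Means were 8.95 ± 0.295 in knockout and 8.96 ± 0.0699 in wildtype arrays (SD, n = 4 and 3). The difference was -0.01 (SE 0.15, 95% interval -0.35 to 0.33, limma adjusted p = 0.986). The gene was the most variable of the 4 tested members, since its residual SD of 0.233 exceeded that of 79.7% of tested genes, against 13.9% for Gatm, 13.4% for Gamt and 10.9% for Ckb. Markers of monocytes and neutrophils, which pass the same sort gate, differed between the same arrays. Their median difference over 7 tested markers was 0.665, with all 7 above 0. In limma 1 of the 7 had an unadjusted p under 0.05, against 11.9% of all tested genes, and 0 passed after adjustment. The mean of 8 measured of 9 markers was 9.67, 10.19, 10.73 and 11.38 in knockout replicates 1 to 4, against 9.73, 10.25 and 9.57 in wildtype replicates 1 to 3. The order of the knockout arrays by these markers was thus the reverse of their order by Slc6a8. Between 3 and 7 of the 8 markers lay above the control level in an array, and Ngp, S100a9 and S100a8 were the brightest. Their part in the Slc6a8 values was not tested. Without knockout replicate 4 the Slc6a8 difference was 0.11 and without knockout replicate 1 it was -0.11, neither past the threshold (limma adjusted p = 0.701 and 0.811).

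**Figure D2:**
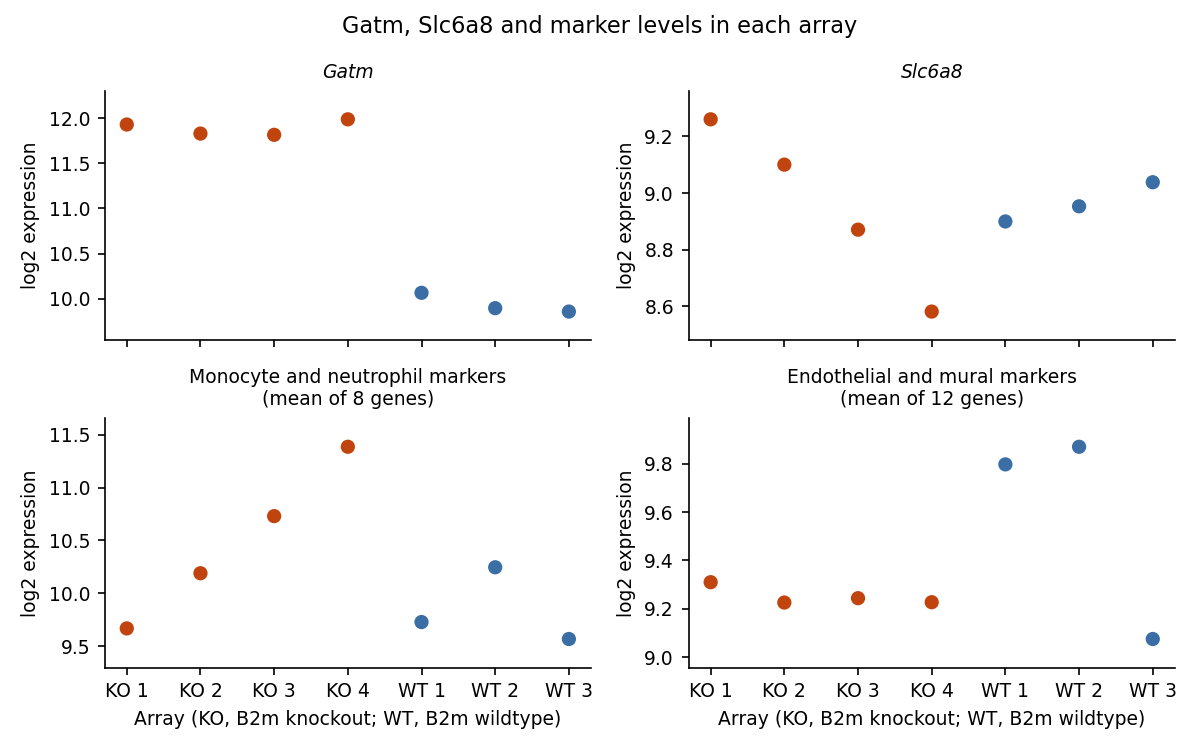
Log2 expression of Gatm and Slc6a8, and the mean log2 level of 8 monocyte and neutrophil and 12 endothelial and mural markers, in each B2m knockout array (KO, orange) and B2m wildtype array (WT, blue), each panel with its own axis. Slc6a8 lies between 8.58 and 9.26 in the knockout arrays, in the reverse order of the monocyte and neutrophil markers (9.67 to 11.38). In the wildtype arrays the order is reversed only in part. Gatm lies between 11.81 and 11.99 in knockout and between 9.86 and 10.06 in wildtype arrays, and the part of the markers in either gene was not tested.

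Ckb (Entrez Gene 12709), the brain-type cytosolic kinase, had values of 9.68, 9.75, 9.71 and 9.70 in knockout arrays, against 9.53, 9.72 and 9.78 in wildtype arrays. The knockout values lay within the wildtype range. Means were 9.71 ± 0.0317 in knockout and 9.68 ± 0.134 in wildtype arrays (SD, n = 4 and 3), a difference of 0.03 (SE 0.099, 95% interval -0.19 to 0.25, limma adjusted p = 0.922). Its sign turned to -0.01 after repeated quantile normalization. Ckb was the kinase that lay above the control level in all 7 arrays.

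The other 3 kinases did not pass the filter on dim genes, which asks that at least 3 arrays hold a value over their own median of named genes (7.93 to 7.99). Each of them was above that median in 0 arrays, so they have no adjusted p and their differences come from the same fit without the filter. Ckm (Entrez Gene 12715), the cytosolic kinase of muscle, ranged from 6.76 to 6.99 in knockout and from 6.82 to 6.99 in wildtype arrays, with a difference of 0.0027 (95% interval -0.22 to 0.23). Ckmt1 (Entrez Gene 12716), the mitochondrial kinase of brain and many other tissues, ranged from 7.68 to 7.87 in knockout and from 7.66 to 7.93 in wildtype arrays, with a difference of -0.04 (95% interval -0.27 to 0.19). Ckmt2 (Entrez Gene 76722), the mitochondrial kinase of heart and skeletal muscle, ranged from 5.85 to 6.35 in knockout and from 6.01 to 6.44 in wildtype arrays, with a difference of -0.04 (95% interval -0.36 to 0.29). The groups overlapped for all 3, and a probe set this dim bounds neither the presence nor the change of its transcript. Their values exceeded 39.6% to 79.7% of the negative control rows in knockout arrays and 45.4% to 79.6% in wildtype arrays. Muscle markers, which could accompany Ckm and Ckmt2, were also dim, with 0 of 8 above the control level in any array. Their mean was 6.62 to 6.76 in knockout and 6.81 to 6.85 in wildtype arrays, without overlap, and their part in the Ckm and Ckmt2 values was not tested.

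Of the 6 members other than Gatm, 3 were tested and 0 passed in limma, where 0.05% of all tested genes passed (5 of 10004). The 10004 include B2m and Gatm. At an unadjusted p under 0.05 limma also counted none of them, against 11.9% of all tested genes, and Gamt came closest. The median difference over all tested genes was -0.0055.

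**Figure D3:**
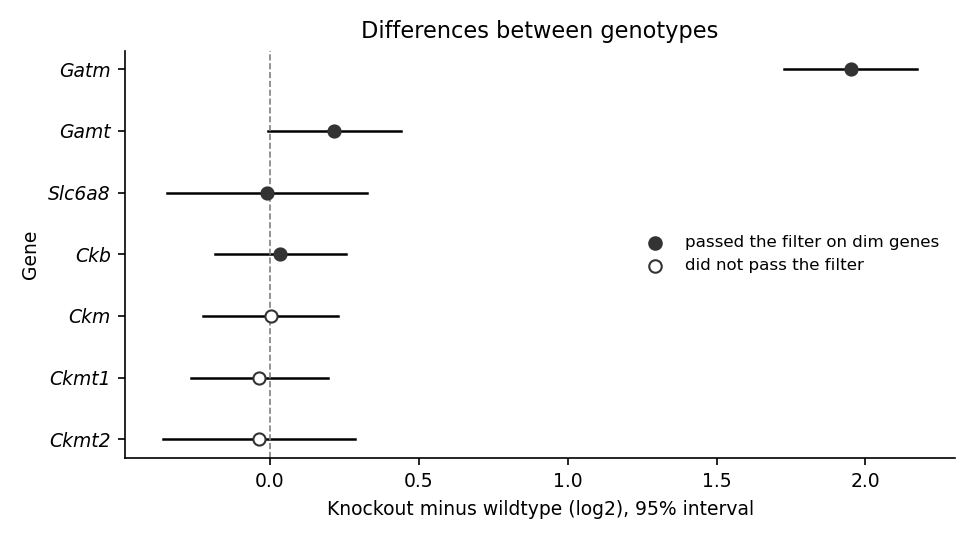
Knockout minus wildtype difference in log2 expression of the 7 creatine genes (points) with 95% intervals (lines). Filled points passed the filter on dim genes and open points did not. The Gatm interval spans 1.73 to 2.17 and is only a description, because Gatm was chosen by this difference. The other 6 intervals include 0.

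Gatm lies close to B2m on chromosome 2, and so does Ckmt1. In the gene order of a reference table of assembly GRCm38.p6, Gatm was 8 places from B2m among genes with a named probe set and the next tested gene on that side. Ckmt1 was 17 places away on the other side. The stretch that runs from the gene beyond Ckmt1 to the gene beyond Gatm held 26 named genes besides B2m and Gatm, of which 13 were tested. In limma 0 of these 13 passed, 6 had an unadjusted p under 0.05, and the groups did not overlap in 1. The corresponding shares over all tested genes were 0.05%, 11.9% and 10.9%. The ends of this stretch were set by Ckmt1 and Gatm. Spint1 (-4.75) and Kcnip3 (-2.25), also on chromosome 2, lie outside it. Over all tested genes 2 were called higher and 3 lower. Without B2m and its 100 tested neighbours, Gatm among these, both counts were 0. The largest difference among the 13 was that of Wdr76, at -0.39 (SE 0.17, adjusted p = 0.406), which was named after its value was seen. The direct neighbours of Gatm were Slc28a2b, which did not pass the filter and differed by -0.26 (SE 0.12), and Spata5l1, at 0.04 (SE 0.12, limma adjusted p = 0.919). Spata5l1 averaged 7.97 in knockout and 7.93 in wildtype arrays. The direct neighbours of Ckmt1 were Ppip5k1, at 0.28 (SE 0.12, limma adjusted p = 0.406), and Strc, which did not pass the filter and differed by -0.10 (SE 0.14). The B2m allele and the stretch of chromosome beside it were not separated by this design, so a difference due to loss of B2m and one due to linked sequence cannot be told apart.

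**Figure D4:**
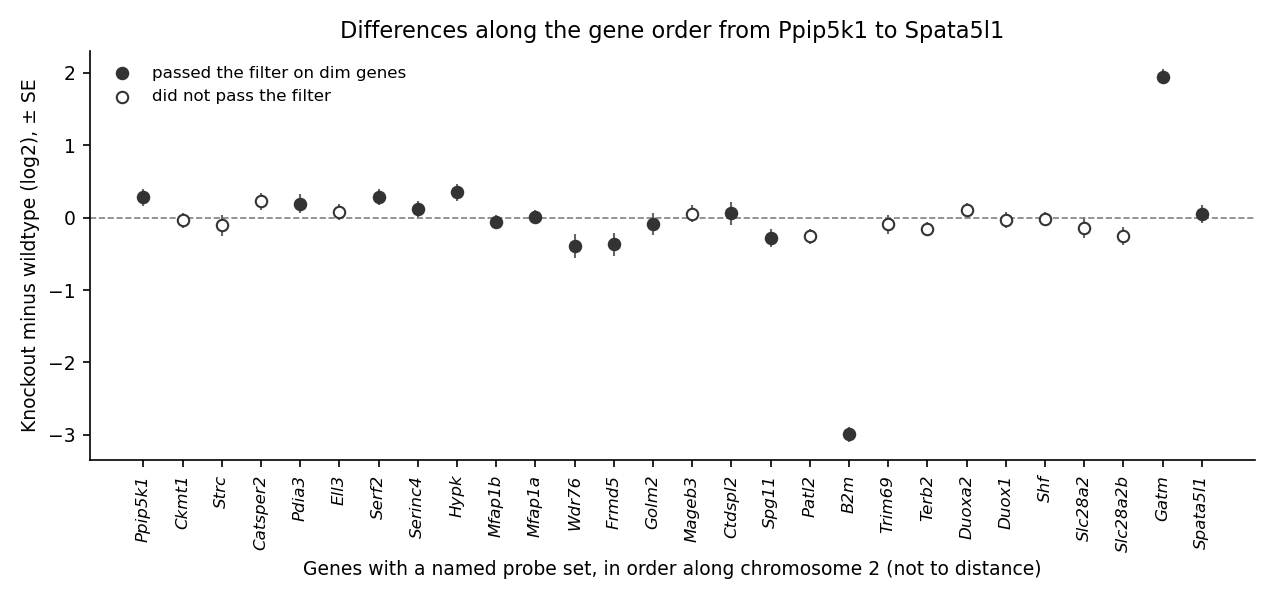
Knockout minus wildtype difference in log2 expression, with SE, for genes with a named probe set in their order along chromosome 2, with equal spacing that does not show distance. Filled points passed the filter on dim genes. Gatm (1.95) and B2m (-2.99) stand away from 0, while the 13 other tested genes of this stretch stay within 0.39 of it. In limma 6 of these 13 had an unadjusted p under 0.05, against 11.9% of all tested genes. Spint1 and Kcnip3, on the same chromosome, lie outside the stretch and are not drawn.

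The 7 arrays formed 2 separate sets in Gatm by genotype, so a correlation with Gatm over them mostly follows genotype and is given as a description. Over the 7 arrays, the highest Pearson correlations with Gatm among tested genes were those of Rsbn1l (0.982), Dnajc14 (0.976), Msrb2, a methionine sulfoxide reductase (0.974), Txnl4a, a splicing factor (0.972) and Zfp706 (0.970). Their differences were 0.31, 0.28, 0.57, 0.52 and 0.22, and Msrb2 alone among them is on chromosome 2. The lowest were those of Spint1 (-0.998), B2m (-0.997) and Kcnip3 (-0.994), which are all on chromosome 2, and of Fam221a (-0.984) and Slc6a20a (-0.974) on other chromosomes. The differences of these 5 were -4.75, -2.99, -2.25, -0.43 and -0.62, so Spint1, B2m and Kcnip3 differed by more than Gatm. After each genotype's mean was removed, correlations with Gatm ranged from 0.156 to 0.796 for the first 5 genes and from -0.863 to -0.535 for the last 5. In all, 70 of 10003 other tested genes had a correlation of at least 0.9, and 344 had one of at least 0.8. Among the members, Gamt followed Gatm most closely over the 7 arrays (0.825), and 0.466 was left after the genotype means were removed. Ckb ran against Gatm within genotypes (-0.824), over values that spanned 0.077 in knockout and 0.257 in wildtype arrays.

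Genes that supply or surround the creatine pathway were read from 5 lists. Of their 40 tested genes, 0 passed in limma over all genes, with a lowest adjusted p of 0.315. At an unadjusted p under 0.05 there were 2 higher and 4 lower of the 40, against 11.9% of all tested genes. The groups did not overlap in 4 of the 40, or 10.0% against 10.9%.

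Arginine and ornithine genes had a median of -0.08 over 9 tested of 16 listed genes, with 2 above 0. Slc7a1, the main cationic amino acid transporter for arginine, had values of 8.62, 9.04, 9.14 and 9.13 in knockout arrays, against 10.04, 9.60 and 9.08 in wildtype arrays. Wildtype replicate 3 lay within the knockout range, and the difference of -0.59 (SE 0.21) did not pass (limma adjusted p = 0.348). The mitochondrial carrier of basic amino acids Slc25a29 averaged 8.03 ± 0.111 in knockout and 8.37 ± 0.0785 in wildtype arrays (SD, n = 4 and 3), a difference of -0.34 (SE 0.10, limma adjusted p = 0.320). Its groups did not overlap, and all of its values were under the control level. Oat, which breaks down ornithine, the by-product of the Gatm reaction, averaged 10.11 in knockout and 10.29 in wildtype arrays, a difference of -0.18 (SE 0.11, limma adjusted p = 0.521).

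Endothelial and mural markers also differed, both between genotypes and among the wildtype arrays. Their median difference over 11 tested markers was -0.373, with 0 above 0. In limma 4 of the 11 had an unadjusted p under 0.05, against 11.9% of all tested genes, and 0 passed after adjustment. The mean of all 12 listed markers was 9.31, 9.23, 9.24 and 9.23 in knockout arrays, against 9.80, 9.87 and 9.08 in wildtype arrays. Wildtype replicate 3 was thus the lowest of all in the markers and the lowest wildtype array in Slc7a1. Other arrays went the other way. Knockout replicate 1 was the highest knockout array in the markers but the lowest of all in Slc7a1 (8.62). Wildtype replicate 2 was highest in the markers but below wildtype replicate 1 in Slc7a1 (9.60 against 10.04). Between 5 and 7 of the 12 lay above the control level in an array, and Cldn5, Ly6c1 and Flt1 were the brightest. Their part in the Slc7a1 values was not tested.

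Glycine and serine genes had a median of 0.05 over 9 tested of 13 listed genes, with 5 above 0 and none under an unadjusted p of 0.05. The glutamine and neutral amino acid transporter Slc38a2 averaged 11.81 in knockout and 12.03 in wildtype arrays (-0.22, SE 0.11, limma adjusted p = 0.455). Psat1, of serine synthesis, averaged 9.33 in knockout and 8.92 in wildtype arrays (0.41, SE 0.22, limma adjusted p = 0.492), with knockout replicate 1 highest at 9.98. Methyl supply genes, which provide the S-adenosylmethionine that Gamt uses, had a median of -0.08 over 8 tested of 18 listed genes. Mat2b, the regulatory subunit of the enzyme that makes S-adenosylmethionine, had values of 9.56, 9.65, 9.33 and 9.23 in knockout arrays, against 9.02, 8.999 and 9.05 in wildtype arrays. All knockout arrays were higher, and the difference of 0.42 (SE 0.12) did not pass (limma adjusted p = 0.315). The methionine synthase Mtr averaged 9.16 ± 0.373 in knockout and 9.57 ± 0.0778 in wildtype arrays (SD, n = 4 and 3), a difference of -0.41 (SE 0.18, limma adjusted p = 0.405), with knockout replicate 4 at 9.68 above all wildtype arrays.

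Adenylate kinases also transfer phosphate in the cell. With the channels and carriers that pass nucleotides through mitochondrial membranes, they had a median of 0.10 over 7 tested of 14 listed genes. Of the 7, 6 lay above 0. Vdac3, a channel of the mitochondrial outer membrane, had values of 11.01, 10.92, 11.02 and 11.00 in knockout arrays, against 10.67, 10.60 and 10.75 in wildtype arrays. All knockout arrays were higher, and the difference of 0.31 (SE 0.093) did not pass (limma adjusted p = 0.320). Ak1, the cytosolic adenylate kinase, averaged 10.54 in knockout and 10.38 in wildtype arrays (0.16, SE 0.0995, limma adjusted p = 0.546). Genes of AMPK, the kinase that senses cellular AMP, had a median of 0.11 over 7 tested of 12 listed genes. Its upstream kinase Camkk2 averaged 9.20 in knockout and 8.84 in wildtype arrays (0.37, SE 0.18, limma adjusted p = 0.453), with knockout replicate 1 at 8.66 below all wildtype arrays. The subunit Prkag3 averaged 8.65 in knockout and 8.93 in wildtype arrays (-0.28, SE 0.11, limma adjusted p = 0.389). All Prkag3 values were under the control level. So were the wildtype values of Psat1, Mat2b and Camkk2 and the knockout values of Slc7a1.

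**Figure D5:**
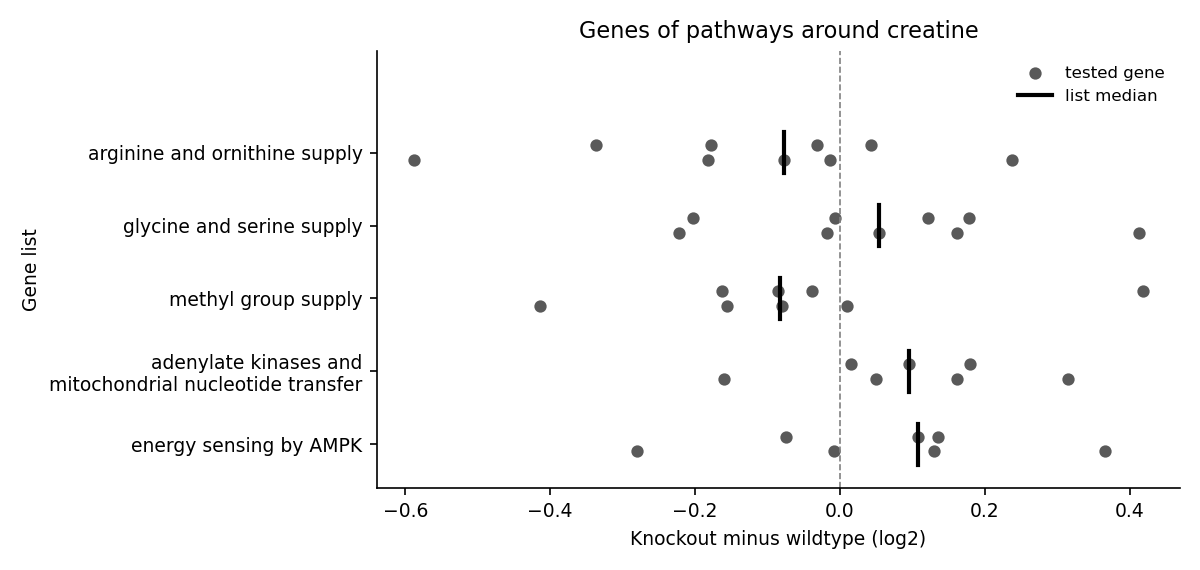
Knockout minus wildtype difference in log2 expression of the 40 tested genes of 5 lists around creatine metabolism (points, alternately offset for legibility) with each list's median (bar). Medians lie between -0.08 and 0.11, and single genes lie between -0.59 and 0.42.

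Other brain cells also use the creatine pathway, so their markers were set beside Gatm. Oligodendrocyte markers averaged 6.96 to 7.21 in knockout and 7.02 to 7.15 in wildtype arrays, with 0 of 9 measured above the control level in any array, Mbp, Mobp and Mag being the brightest. Astrocyte markers averaged 7.33 to 7.76 in knockout and 7.61 to 7.76 in wildtype arrays, with 0 of 10 above it. Neuronal markers averaged 7.701 to 7.89 in knockout and 7.79 to 7.87 in wildtype arrays, with 1 or 2 of 10 above it, Map2 and Nrgn being the brightest. T cell markers averaged 6.72 to 6.94 in knockout and 6.93 to 7.01 in wildtype arrays, with 0 of 6 above it. Markers of border-associated macrophages averaged 8.83 to 8.98 in knockout and 8.70 to 9.16 in wildtype arrays, with 2 to 4 of 8 above it. For each of these lists the array means overlapped between genotypes. The part of these cell types, and of the monocytes, neutrophils and endothelial or mural cells described above, in the Gatm difference was not tested.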

How the data were processed

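Microglia sorted from brains of 5xFAD mice were hybridized to 1 whole-transcript array per sample, 4 B2m knockout and 3 B2m wildtype. The deposited values are log2 expression per probe set, which, per the submitters' processing notes, the authors made with RMA (background correction, normalization, probe set summary) using Affymetrix Expression Console 1.1. The array's genome build was not given in the sources used here. Array medians were 7.68 to 7.75, and no further normalization was applied. GEO's platform annotation paired 19572 of 28846 rows with 1 symbol, all updated by Entrez identifier, and where a gene had several probe sets the brightest was kept. The 5222 rows with neg in their identifier were read as negative controls.

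The 10004 genes brighter than their array's named-gene median in at least 3 arrays were compared with limma 3.58.1 (R 4.3.3), lmFit and eBayes, with Benjamini-Hochberg adjustment over all of them and a threshold of 0.05. The script was tested on simulated data. Replicate numbers follow deposit order. The number of arrays limits the precision. Alternatives changed the filter, the variance model, array weights, normalization, probe set summary, the genes tested and the arrays used. The members and lists were chosen with earlier results of these data known. Names in the text follow a rule: the members, B2m, up to 3 tested genes of each list by unadjusted p, the 5 genes most and least correlated with Gatm, the brightest markers and direct neighbours.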

Additional observations from a re-analysis of the deposited data

How the results depend on the processing

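The Gatm difference lay between 1.91 and 2.03 in the 16 alternatives that held it. Gatm was chosen by this difference, so the range is a description and no support for it. Leaving out arrays could not turn its sign, because all knockout values lay above all wildtype values. The Gatm difference has no value in the alternative that leaves out B2m and its 100 tested neighbours. Gamt, Slc6a8 and Ckb passed the threshold in none of the alternatives that tested them (16, 17 and 17), with lowest adjusted p of 0.336, 0.701 and 0.7935. The sign turned in 5 of 17 alternatives for Slc6a8 and in 3 of 17 for Ckb. Without wildtype replicates 1 and 2, which leaves 1 wildtype array assumed to vary like the knockout arrays, Ckm differed by -0.11 and Ckmt1 by 0.11. The glycine and serine median was -0.0175 with no filter and -0.0227 without wildtype replicates 1 and 2. In the 5 related lists 0 genes were called in every alternative run. Over all tested genes, which include B2m and Gatm, limma called 2 higher and 3 lower. The higher count was 1 with the stricter filter, 0 without B2m and its 100 tested neighbours, and 1 without wildtype replicates 1 and 2. The lower count was 0 without B2m and its neighbours. Leaving out 1 array at a time gave 1 to 7 higher and 3 to 19 lower, with the 7 and the 19 both without wildtype replicate 3. No paired analysis was possible because the labels give nothing that pairs a knockout sample with a wildtype sample. Gamt, Slc6a8, Ckm, Ckmt1 and Ckmt2 were dimmer in every array than the brightest 5% of its negative controls, which limits what a small difference in them can show.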
